A study of Rattus norvegicus with 8 samples.

Results

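Expression of the potassium (K+) channel genes was examined in primary cultures of rat semicircular canal duct (SCCD) epithelium, the sheet of cells that lines the ducts of the vestibular organ and absorbs sodium from the endolymph. The genes were taken by symbol, as all probe sets whose single gene symbol in the array annotation begins with Kcn, with no use of their signals. This gave 108 probe sets of 73 genes, of 15866 probe sets other than controls on the array. Of these genes, 51 had 1 probe set and 22 had several, up to 6 for Kcnc2.

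The cultures came from the canals of neonatal Wistar rats (3 to 5 days old) grown on permeable supports, and no genotype other than the strain was given. The dexamethasone group (n = 4) received 100 nM dexamethasone, a synthetic glucocorticoid, and the control group (n = 4) was untreated, with 1 Affymetrix Rat RAE 230A array per sample. The time of exposure for the arrays was not given in the sources used here. Nor was it stated whether the samples were separate dissections or paired cultures, so p-values reflect only how much these samples varied, which may be technical. Replicates are given in the order 1 to 4 of their labels.

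K+ channels let K+ leave a cell down its gradient and thereby hold the membrane voltage that draws sodium into an absorbing epithelium. They also give an exit to the K+ that the sodium pump accumulates in the cell. In the vestibular labyrinth K+ is secreted into the endolymph by dark cells, neighbours of the canal duct, through a channel made of Kcnq1 and its accessory subunit Kcne1. The Kcn symbols cover 2-pore domain (leak) channels, inward rectifiers, voltage-gated channels with their accessory subunits, and calcium-activated and sodium-activated channels.

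The deposited signals had a 2% trimmed mean of 500.1 on replicates 1 and 2 of both groups and of 202 to 336 on replicates 3 and 4, and each array was rescaled to a trimmed mean of 500. Arrays correlated at 0.953 to 0.983 over all probe sets (log2 signals). The 3′ over 5′ ratio of the beta-actin signals, which is lower in better preserved RNA, was 6.17 to 8.07 on dexamethasone arrays and 8.10 to 13.7 on control arrays, without overlap. The same ratio of the GAPDH signals was 2.14 to 3.18 on dexamethasone arrays and 2.10 to 3.79 on control arrays, which overlapped. Of 9 epithelial markers, 8 were above the level of silent genes, defined below, on all 8 arrays, and Scnn1a was above it on 4. All 9 were tested, and 1 was called higher with dexamethasone and 1 lower. Scnn1a was higher (log2 fold change 1.299, adjusted p = 0.0338 from limma) and Krt18 lower (log2 fold change -0.4657, adjusted p = 0.02998 from limma). Of the markers measured for neurons and Schwann cells (6) and for hair cells (2), 0 were above the level of silent genes on any array, nor was the 1 melanocyte marker measured. Of the fibroblast markers, 3 of 6 were above it on all 8 arrays: Col3a1 (2160 ± 428.5 with dexamethasone, 2359 ± 187 in control), Col1a1 (1241 ± 389 and 1119 ± 68.9) and Col1a2 (1099 ± 402 and 1580 ± 322), of which 0 passed the test. The other fibroblast markers were above it on 1 array (Pdgfra) or on none (Lum and Dcn). Of the muscle markers, 1 of 8 was above it on all 8 arrays, Acta2 (481 ± 76.7 and 528 ± 48.9, SD, n = 4 each). Myog was above it on 5 arrays, Cnn1 on 2 and Ckm on 1, and the other 4 muscle markers on none. Summed endothelial markers were 2656 to 3174 with dexamethasone and 831.5 to 1104 in control, a difference carried by Kdr (2763 ± 249.6 against 704 ± 151, SD, n = 4 each) while Flt1 was lower (53.6 ± 28.1 against 182 ± 12.0, adjusted p = 0.0200 from limma) and Pecam1 was 55.7 or less on every array. Summed macrophage markers were 979 to 1209 with dexamethasone and 717 to 927 in control, with Cd14 at 544 ± 185 and 278 ± 75.6 (adjusted p = 0.0809 from limma). Cd14 and Aif1 were above the silent level on all 8 arrays and Csf1r on 6, and the other 4 macrophage markers, Ptprc and Cd68 among them, on none. What part these markers or the actin ratio have in the values below was not tested. In RNA from whole cultures, fewer cells of a type and less RNA per cell cannot be told apart.

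Most K+ channel genes gave signals in the range of genes that this tissue is not known to use. To set a level of silent genes, 82 probe sets of 75 genes of other tissues (pancreatic enzymes, lens and retinal proteins, pituitary hormones and the like) were collected, and their 95th percentile was computed for each array. This level was 183, 145, 124 and 116 on the dexamethasone arrays and 172, 140.2, 165 and 98.1 on the control arrays. Of the 108 Kcn probe sets, 5 (4.63%), of 4 genes, were above it on all 8 arrays, against 49.1% of all probe sets. A further 21 were above it on some arrays, and 82 (75.9%) on none, against 34.2% of all probe sets. By the strongest probe set of each gene, 4 genes were above on all 8 arrays, 17 on 1 to 7 and 52 on none. The median over Kcn probe sets of the mean signal was 51.0, that of silent probe sets 39.9 and that of all probe sets 205. Of the silent probe sets themselves, 2.44% were above the level on all 8 arrays. The number of Kcn probe sets depended on the level chosen: 9 at the 90th percentile of the silent genes and 0 at their highest signal. Probe sets differ in how strongly they bind, so a low signal does not show that a transcript is absent, and signals do not rank genes.

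**Figure D1:**
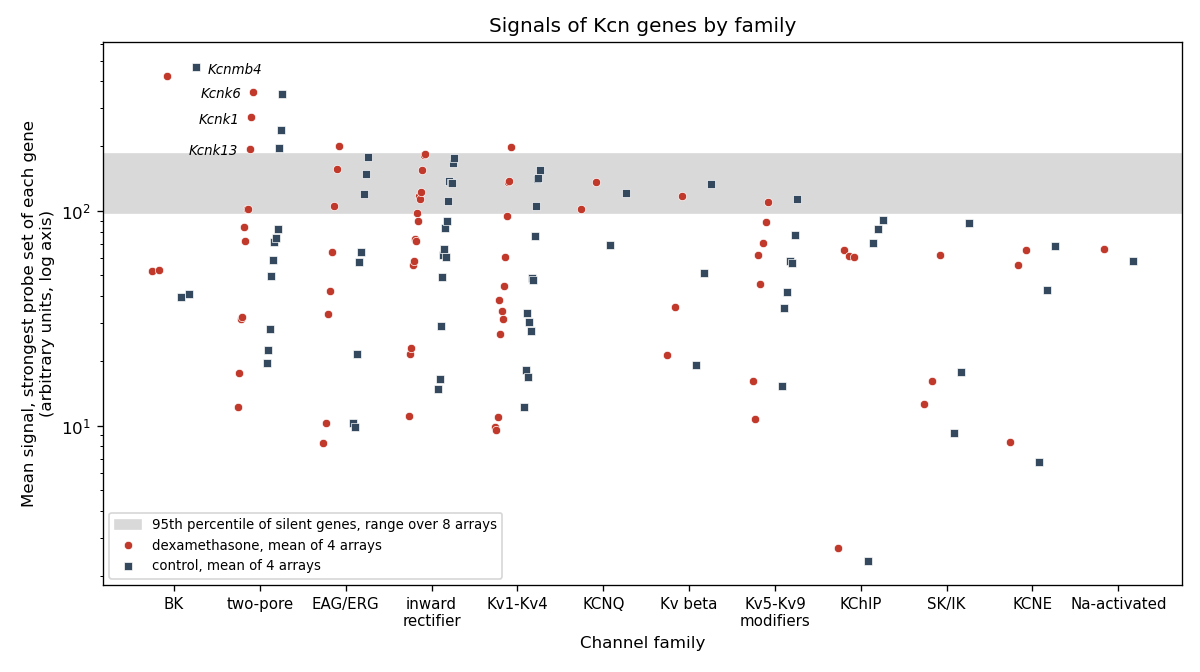
Mean rescaled signal of the strongest probe set of each of the 73 Kcn genes (arbitrary units, log axis) by channel family, for dexamethasone (circles, left) and control (squares, right), each the mean of 4 arrays. The grey band is the range over the 8 arrays of the 95th percentile of silent genes (98.1 to 183); the 4 genes above this level on every array (Kcnmb4, Kcnk6, Kcnk1 and Kcnk13) are named, and most genes lie under or inside the band.

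No K+ channel gene was called changed by dexamethasone. Testing was limited to probe sets whose signals averaged 100 or more over the 8 arrays. This left 24 Kcn probe sets of 20 genes (22.2%, against 65.3% of all probe sets), and 0 were called in either direction (limma, Benjamini-Hochberg adjusted p under 0.05 over 10368 probe sets), with adjusted p of 0.494 to 0.990. The same test called 279 of all tested probe sets (2.69%), 1.88% higher and 0.81% lower, and 0 of 24 is near that share. The shares of all tested probe sets in this paragraph were not matched for signal. With a filter of 250 in place of 100, 265 probe sets were called. Of the 24, only Kcnmb4, Kcnk1 and the stronger probe set of Kcnk6 averaged 250 or more. At an unadjusted p under 0.05, 0 of the 24 passed (limma), against 16.1% of all tested probe sets, and the smallest unadjusted p was 0.143 (limma), for Kcnk1. Of the 24, 15 had a fold change above 0 on the log2 scale and 9 below. Their median log2 fold change (dexamethasone over control) was 0.07, against -0.02 over all tested probe sets, and their median absolute log2 fold change was 0.14, against 0.16. By an exact permutation test, 1 of the 24 (Kcnk1) reached the smallest two-sided p that 4 arrays against 4 allow, 0.0286, which means no overlap between the groups. That is 4.17%, against 11.0% of all tested probe sets without overlap in either direction.

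The intervals set how large a change of signal could have been missed, which need not equal the change of transcript where signals are near those of silent genes. The 95% confidence interval of the log2 fold change extended 0.28 to 1.19 to each side of the estimate over the 24 probe sets. It lay inside 1 on the log2 scale in both directions, a 2-fold change, for 22 of 24, the exceptions being Kcnh2 and the weaker probe set of Kcnq3. It lay inside 1.3-fold (0.38 on the log2 scale) in both directions for 0 of 24, so for none was such a change excluded both ways. Some intervals did exclude it in 1 direction. Examples are a fall for Kcnk1 (lower bound -0.08) and a rise for the weaker probe set of Kcnq3 (upper bound 0.29). Passing the filter did not by itself mark a gene as expressed, since 12 of the 82 silent probe sets passed it too.

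**Figure D2:**
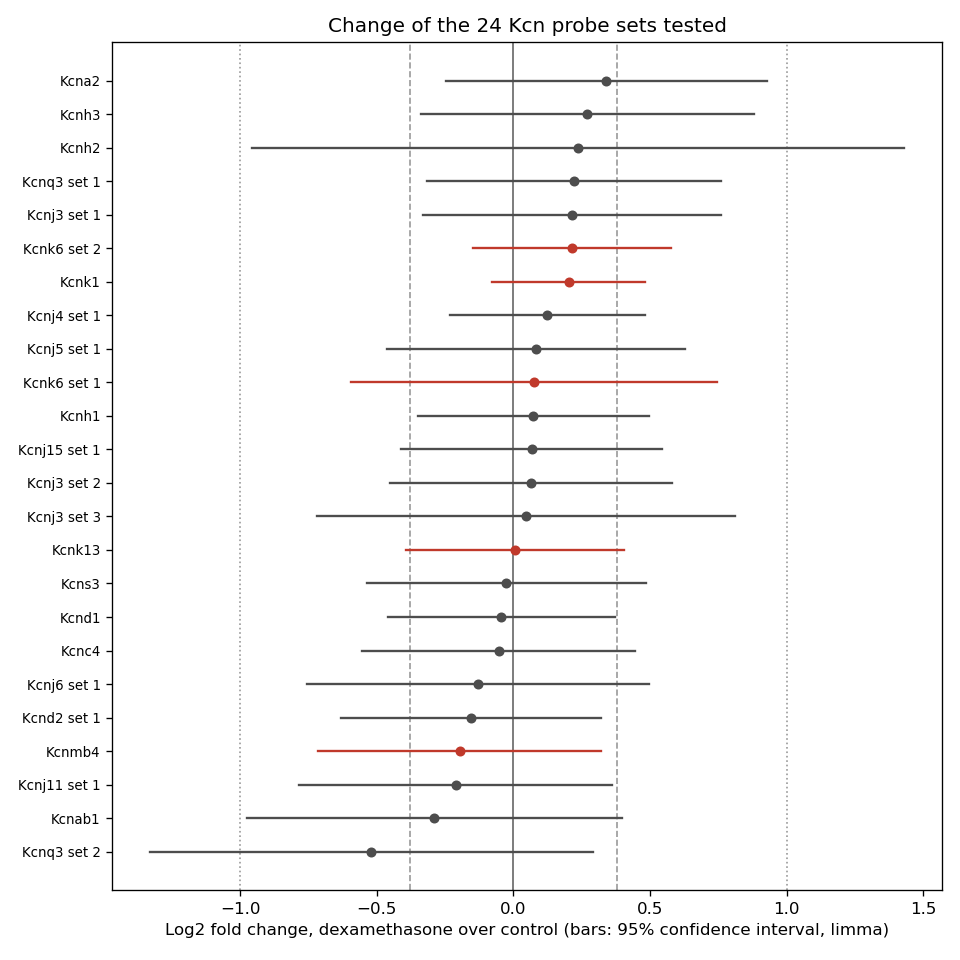
Log2 fold change (dexamethasone over control) of the 24 Kcn probe sets tested, with 95% confidence intervals from limma, ordered from the highest (Kcna2) to the lowest (Kcnq3, set 2). Sets of one gene are numbered by mean signal, the strongest first. Dashed lines mark 1.3-fold and dotted lines 2-fold; red marks probe sets above the level of silent genes on all 8 arrays, and every interval includes 0.

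The 2-pore domain channels, which pass background K+ current at rest, held 3 of the 4 genes above the silent level on all arrays (11 genes and 15 probe sets measured, 4 probe sets tested). Kcnk1 (TWIK-1), a weakly inward rectifying channel found in many epithelia, had signals of 269.5, 271, 273 and 274 with dexamethasone and of 247, 258, 222 and 220.1 in control. All 4 dexamethasone arrays lay above all 4 control arrays, and the spread was narrow with dexamethasone (272 ± 1.85) and wider in control (237 ± 18.7, SD, n = 4 each). The log2 fold change was 0.20 (SE 0.13, interval -0.08 to 0.48, adjusted p = 0.494 from limma). With no filter, which changes the variance model, the SE was 0.07 and the interval 0.026 to 0.377 (unadjusted p = 0.0297, adjusted p = 0.331 from limma). Within-set values were 0.10 for replicates 1 and 2 and 0.30 for replicates 3 and 4. Groups without overlap, higher with dexamethasone, were found for 1 of 24 Kcn probe sets (4.17%) and for 5.57% of all tested probe sets, and lower for 0 of 24 and 5.46%.

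Kcnk6 (TWIK-2), the close relative of Kcnk1, had 2 probe sets, both above the silent level on every array. The stronger by mean signal had signals of 203, 362, 458 and 408 with dexamethasone and of 225, 271, 309.7 and 591.5 in control, which overlapped (log2 fold change 0.08, SE 0.31, interval -0.59 to 0.75, adjusted p = 0.937 from limma). The weaker had signals of 254.5, 262, 232 and 196.5 with dexamethasone and of 228, 171, 232 and 184 in control (log2 fold change 0.22, SE 0.17, interval -0.15 to 0.58, adjusted p = 0.579 from limma). The highest signal of the stronger probe set was on control replicate 4, where the weaker had one of its lowest.

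Kcnk13 (THIK-1), a leak channel inhibited by the anaesthetic halothane, had signals of 218, 211, 170.3 and 178 with dexamethasone and of 257, 186, 176 and 162 in control. Its groups overlapped, and the log2 fold change was 0.0072 (SE 0.18, interval -0.39 to 0.41, adjusted p = 0.990 from limma). In both groups replicates 1 and 2 were above replicates 3 and 4. Of the other 8 genes of the family, Kcnk3 (TASK-1), an acid-sensitive leak channel, was above the silent level on 1 array by its strongest probe set. The remaining 7 were above it on none, and among them Kcnk5 (TASK-2), an alkaline-activated channel of kidney epithelium, had signals of 97.1, 82.6, 59.2 and 95.3 with dexamethasone and of 99.1, 11.8, 86.7 and 37.8 in control.

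The calcium-activated channels were represented above the silent level by an accessory subunit alone. Kcnmb4, the beta 4 subunit that slows the gating of the large conductance (BK) channel, had signals of 298, 295, 642 and 467 with dexamethasone and of 401, 401, 511 and 552 in control. Its groups overlapped, with replicates 3 and 4 above replicates 1 and 2 in both (log2 fold change -0.20, SE 0.24, interval -0.71 to 0.32, adjusted p = 0.744 from limma). Within replicates 1 and 2 both dexamethasone arrays were below both control arrays (log2 difference -0.44), and within replicates 3 and 4 the difference was 0.04. The test of the difference between the array sets gave an unadjusted p of 0.087 and an adjusted p of 0.787 (limma, interaction term).

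Kcnma1, the pore-forming subunit that Kcnmb4 accompanies, was above the silent level on 0 of 8 arrays by each of its 3 probe sets, with signals between 10.3 and 92.7. Its second probe set by mean signal had signals of 29.9, 30.4, 43.8 and 33.8 with dexamethasone and of 65.1, 47.3, 56.0 and 34.4 in control. With no filter on low signals its log2 fold change was -0.53 (SE 0.22, unadjusted p = 0.0462, adjusted p = 0.392 from limma), and the other 2 probe sets of Kcnma1 had higher means with dexamethasone (52.5 and 27.7) than in control (39.7 and 24.3). Kcnmb1, the subunit of smooth muscle BK channels, had signals of 27.1 to 73.9 with dexamethasone and of 12.3 to 65.4 in control. Kcnn4, the intermediate conductance channel that recycles K+ during chloride secretion in gut and airway, had signals of 3.40, 37.5, 3.32 and 6.06 with dexamethasone and of 9.30, 4.70, 21.0 and 1.79 in control, all under the silent level. The small conductance channels Kcnn1 and Kcnn3 and the sodium-activated channel Kcnt1 were above it on no array either.

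**Figure D3:**
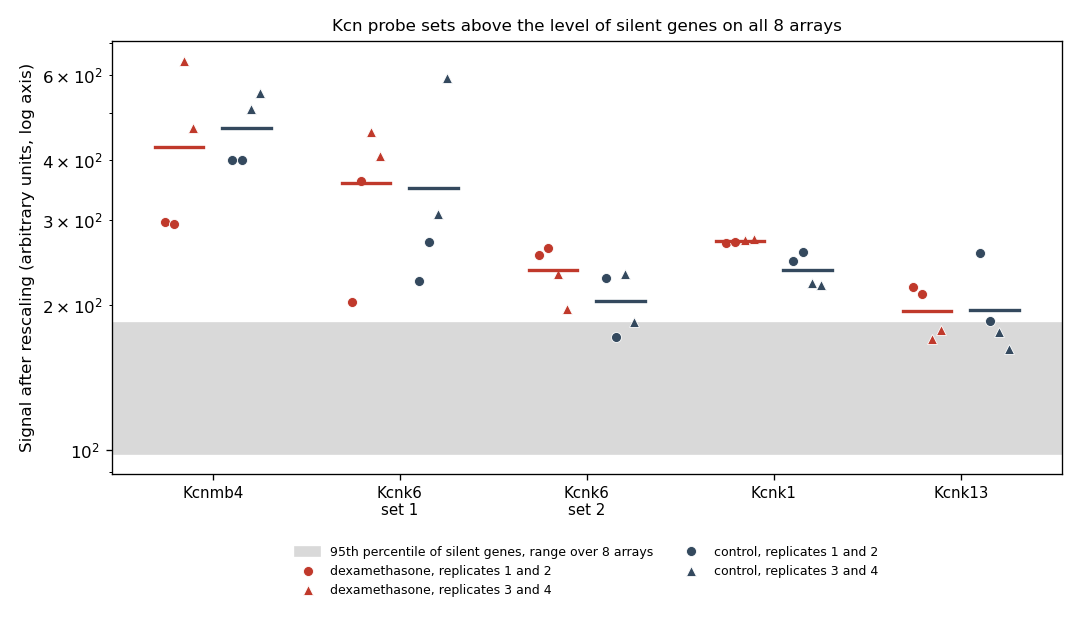
Rescaled signals (arbitrary units, log axis) of the 5 Kcn probe sets above the level of silent genes on all 8 arrays. Points are arrays (circles, replicates 1 and 2; triangles, replicates 3 and 4), dexamethasone left of control, and horizontal lines are means of 4; only Kcnk1 (269.5 to 274 with dexamethasone, 220.1 to 258 in control) has groups that do not overlap.

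The promoters of these genes are shown because the glucocorticoid receptor, when dexamethasone binds it, acts on DNA at elements built from the hexamer AGAACA and its reverse complement TGTTCT. The RefSeq promoter table used here (build GRCr8) held Kcnk13 and Kcnmb4 of the 4 genes, and the 250 bases before the start of each are printed 5′ to 3′ on the strand of the gene, with the hexamer in capitals where it occurs.
Kcnk13, chr6:124971559-124971808, plus strand: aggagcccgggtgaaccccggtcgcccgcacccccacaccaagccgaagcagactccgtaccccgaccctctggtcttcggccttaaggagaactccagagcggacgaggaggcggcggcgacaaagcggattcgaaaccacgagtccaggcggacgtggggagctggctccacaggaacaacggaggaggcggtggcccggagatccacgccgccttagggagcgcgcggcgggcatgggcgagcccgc
Kcnmb4, chr7:54005102-54005351, minus strand: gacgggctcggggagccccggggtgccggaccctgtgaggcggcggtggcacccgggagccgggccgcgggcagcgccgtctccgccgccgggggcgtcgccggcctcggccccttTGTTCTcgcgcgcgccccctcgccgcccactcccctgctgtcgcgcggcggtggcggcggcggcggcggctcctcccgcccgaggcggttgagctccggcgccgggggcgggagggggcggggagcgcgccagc

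The Kcnmb4 window held 1 hexamer, its first base 134 bases before the start, and the Kcnk13 window held 0. The windows were rich in G and C (84.4% and 69.6%), with a ratio of observed to expected CpG of 0.992 for Kcnmb4 and 0.959 for Kcnk13. Of the 73 genes on the array, 50 matched the promoter table, with 56 starts. The hexamer, on either strand, occurred in 9 of these 56 windows (16.1%) and in 17.5% of all 33469 windows of that table. The full element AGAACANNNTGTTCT occurred in 0 of 56 and in 0.012% of all windows. The median G and C content was 62.0% for the Kcn windows and 51.2% for all. A match of letters is a description of the sequence and not a site of binding.

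The inward rectifiers, which pass K+ more easily into than out of the cell and set the resting voltage, had 15 genes and 26 probe sets, of which 8 were tested, and 0 genes were above the silent level on all arrays. Kcnj15 (Kir4.2), an inward rectifier of kidney epithelium, came close with 7 of 8 arrays above it by its stronger probe set. Its signals were 193, 207, 202 and 131.5 with dexamethasone and 148, 176, 240.1 and 141 in control (log2 fold change 0.07, SE 0.22, adjusted p = 0.919 from limma). Its weaker probe set was under the filter and was not tested. That probe set had signals of 51.3, 54.0, 139 and 69.6 with dexamethasone and of 46.1, 2.80, 33.2 and 26.9 in control, without overlap.

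With no filter 0 of 108 Kcn probe sets were called, against 0.643% of all, and 4 (3.70%) had an unadjusted p under 0.05, against 12.4% of all (limma). Among them, the weaker probe set of Kcnj15 had the smallest adjusted p (log2 fold change 1.34, SE 0.43, unadjusted p = 0.0168, adjusted p = 0.255 from limma), and it was above the silent level on 1 of 8 arrays. The 2 probe sets of this gene thus disagreed in size, 0.07 against 1.34. Kcnj4 (Kir2.3), a strong inward rectifier, was above the silent level on 7 arrays, at 153 to 212 with dexamethasone and 156 to 172.5 in control (log2 fold change 0.12, SE 0.16, adjusted p = 0.769 from limma).

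Kcnj3, Kcnj5 and Kcnj6, subunits of channels opened by G proteins, had log2 fold changes of -0.13 to 0.22 over their 5 tested probe sets, with adjusted p of 0.730 or above (limma). Kcnj11 (Kir6.2), the pore of the ATP-sensitive channel of pancreatic beta cells and muscle, had 111, 133, 97.1 and 114 with dexamethasone and 178, 129, 161 and 79.2 in control (log2 fold change -0.21, SE 0.26, adjusted p = 0.752 from limma). The other 9 genes of the family were above the silent level on no array. Among these, Kcnj13 (Kir7.1), a channel of transporting epithelia such as the choroid plexus, had 108, 134, 82.0 and 67.7 with dexamethasone and 72.8, 62.7, 70.3 and 38.4 in control, and its mean of under 100 kept it out of the test.

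Voltage-gated channels open when the membrane depolarizes and are best known from nerve and muscle. Of the 13 Kv1 to Kv4 genes, 0 were above the silent level on all arrays and 10 were above on none. Kcna2 (Kv1.2), a delayed rectifier of axons, had 296.5, 154, 148 and 192 with dexamethasone and 197, 169, 155 and 97.5 in control, above the silent level on 6 of 8 arrays. It had the highest log2 fold change of the 24 (0.34, SE 0.27, interval -0.25 to 0.93, adjusted p = 0.589 from limma), and dexamethasone replicate 1 alone lay above all control arrays. Kcnc4, Kcnd1 and Kcnd2 had log2 fold changes of -0.05, -0.04 and -0.16 (adjusted p of 0.787 or above, limma). Kcna4, a rapidly inactivating channel, had signals of 1.60 to 23.0 with dexamethasone and of 7.20 to 50.5 in control, all under the silent level, and an unfiltered log2 fold change of -0.90 (SE 0.36, unadjusted p = 0.0396, adjusted p = 0.370 from limma), which the floor of 16 enters.

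Among the ether-à-go-go (EAG and ERG) channels, 3 of 8 genes were tested. Kcnh3, known from the forebrain, had 180.1, 220.4, 177 and 221 with dexamethasone and 164, 93.3, 281 and 171 in control, above the silent level on 5 arrays (log2 fold change 0.27, SE 0.28, adjusted p = 0.695 from limma). Kcnh1 had a log2 fold change of 0.07 (SE 0.19, adjusted p = 0.899 from limma). Kcnh2, the ERG channel that repolarizes the heart, had 112, 109, 109.5 and 91.9 with dexamethasone and 205, 173, 23.8 and 75.2 in control. The control arrays thus spread over both sides of the dexamethasone arrays, and the interval was the widest of the 24 (log2 fold change 0.24, SE 0.55, interval -0.96 to 1.43, adjusted p = 0.880 from limma). It was above the silent level on 2 arrays, control replicates 1 and 2.

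Kcnq3, a subunit of the M channel that damps firing of neurons, had 2 tested probe sets that pointed in opposite directions. The stronger by mean signal had 129, 161, 120.2 and 133.5 with dexamethasone and 184, 112, 90.1 and 97.1 in control (log2 fold change 0.22, SE 0.25, adjusted p = 0.719 from limma). The weaker had 208.5, 76.4, 98.7 and 57.8 with dexamethasone and 153.5, 131, 200.3 and 95.5 in control (log2 fold change -0.52, SE 0.37, interval -1.33 to 0.29, adjusted p = 0.542 from limma). By the median of the 16 ratios of a dexamethasone over a control array, a rule like that of the study's methods and without a test, the weaker probe set was the 1 tested Kcn probe set past 1.3-fold (median log2 ratio -0.68). That is 1 of 24 lower (4.17%), against 7.06% of all tested probe sets, and 0 of 24 higher, against 7.35%.

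Of the accessory subunits of voltage-gated channels, Kcnab1, a cytosolic beta subunit, had 169, 121, 126 and 53.9 with dexamethasone and 137, 126, 156 and 116 in control (log2 fold change -0.29, SE 0.31, adjusted p = 0.712 from limma). The modifier Kcns3, which forms no channel of its own, had a log2 fold change of -0.03 (SE 0.23, adjusted p = 0.975 from limma). The other 6 modifier genes, the 4 KChIP genes, which bind Kv4 channels, and the other 2 beta subunits were above the silent level on no array. Signals were under the floor of 16 on all 8 arrays for 9 Kcn probe sets, and for the strongest probe set of 3 genes, Kcnh8, Kcne1 and Kcnip1.

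Genes of known roles in inner ear K+ transport were looked at across all arrays. Kcnq1, the dark cell channel, had 81.9, 98.1, 119 and 109.8 with dexamethasone and 80.5, 20.0, 79.5 and 96.7 in control. Every dexamethasone array lay above 3 or more control arrays, but the groups overlapped (exact permutation test, two-sided p = 0.0571), and no array was above the silent level. Kcne1, its partner in dark cells, had 10.6, 10.1, 6.95 and 5.90 with dexamethasone and 9.70, 8.50, 5.69 and 3.13 in control, all under the floor, so no fold was computed. Slc12a2, the sodium, potassium and chloride cotransporter that dark cells share with other epithelia, was above the silent level on all 8 arrays (2388 ± 277 with dexamethasone, 2488 ± 109 in control, SD, n = 4 each).

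Kcnj10 (Kir4.1), which in the cochlea generates the endocochlear potential, had 107, 60.7, 67.9 and 54.0 with dexamethasone and 123, 80.6, 65.9 and 63.7 in control, above the silent level on 0 arrays. Kcnj16 (Kir5.1), which pairs with Kcnj10 in kidney tubules, had 93.0, 40.7, 58.0 and 31.8 with dexamethasone and 83.6, 5.70, 88.1 and 18.5 in control by its strongest probe set, likewise under it. Kcne3, a subunit that holds Kcnq1 channels open in gut and airway, was above the silent level on 1 array, dexamethasone replicate 2, at 186, with 19.4 to 31.1 on the other dexamethasone arrays and 20.3 to 112 in control. Kcne2 had 17.1 to 76.5 with dexamethasone and 19.8 to 75.9 in control by its strongest probe set. Of the 97 Kcn symbols in the separate RefSeq table of gene names, 24 were not analysed here, among them Kcne4 and Kcnn2.

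**Figure D4:**
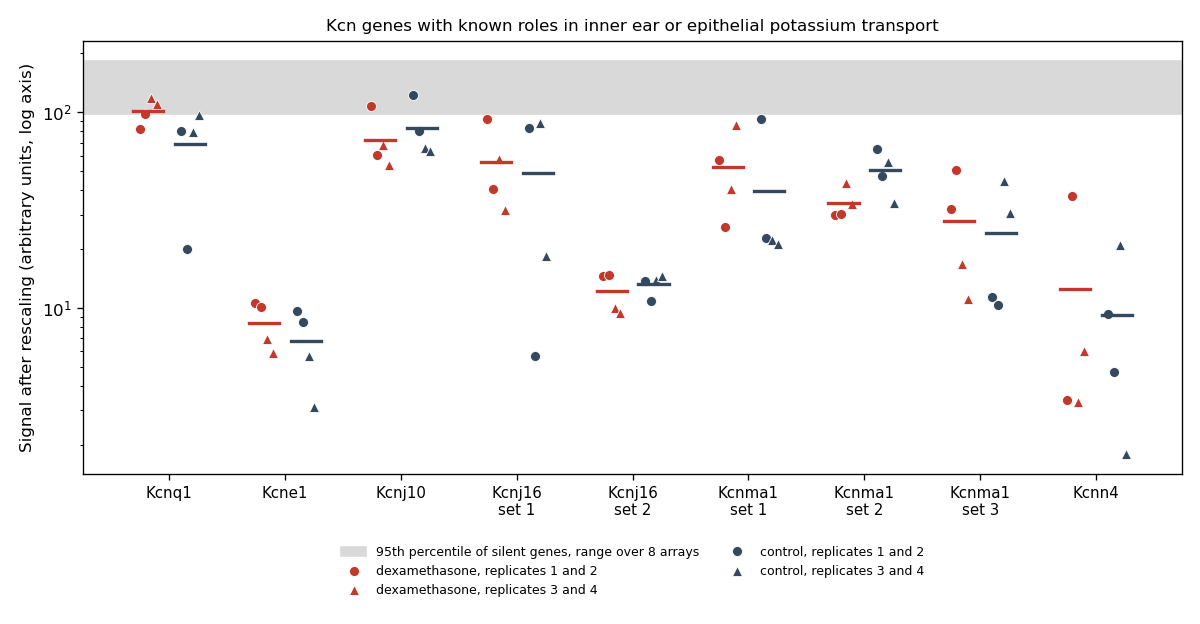
Rescaled signals (arbitrary units, log axis) of Kcn genes with known roles in inner ear or epithelial K+ transport, 9 probe sets of 6 genes. Points are arrays (circles, replicates 1 and 2; triangles, replicates 3 and 4), dexamethasone left of control, horizontal lines are means of 4, sets of one gene are numbered by mean signal, and the grey band is the range of the silent level; Kcne1 lies under 16 on all 8 arrays, and of the other genes plotted only Kcnq1 and Kcnj10 reach into the band, up to 123.

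The several probe sets of a gene need not give like signals, since they bind differently. Of the 22 genes that had several, 7 (Kcne2, Kcng2, Kcnj5, Kcnj6, Kcnj11, Kcnj16 and Kcnk3) had mean signals more than 4-fold apart. Those of Kcne2 had mean signals of 49.4, 10.9 and 1.02 over the 8 arrays. Kcnj11 had 125 for its strongest probe set and 8.31 for its weakest, and the others were Kcnk3 (88.3 and 16.4), Kcng2 (52.1 and 10.4), Kcnj5 (114 and 24.1), Kcnj6 (129 and 28.7) and Kcnj16 (52.4 and 12.7). The strongest and weakest probe sets of one gene fell on different sides of the filter in Kcnd2, Kcnj4, Kcnj5, Kcnj6, Kcnj11 and Kcnj15.

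The 2 array sets that the deposited scaling separates, replicates 1 and 2 and replicates 3 and 4, were compared because each holds both groups. Of the 24 tested Kcn probe sets, 13 had log2 differences of the same sign in both sets and 11 of opposite signs. The differences ran from -0.77 to 0.69 in replicates 1 and 2 and from -0.87 to 1.25 in replicates 3 and 4. Kcnh2 had both the lowest of the first (-0.77) and the highest of the second (1.25). In limma's interaction test, run over the probe sets that passed the filter, it was the 1 Kcn probe set of the 24 with an unadjusted p under 0.05 (interaction 2.02, unadjusted p = 0.0121, adjusted p = 0.787). Kcnh3 had the highest of the first (0.69) and a difference of -0.15 in the second. The first set held the lowest adjusted p of any Kcn probe set under any setting, 0.146 for Kcnh2 (limma, replicates 1 and 2 alone).

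**Figure D5:**
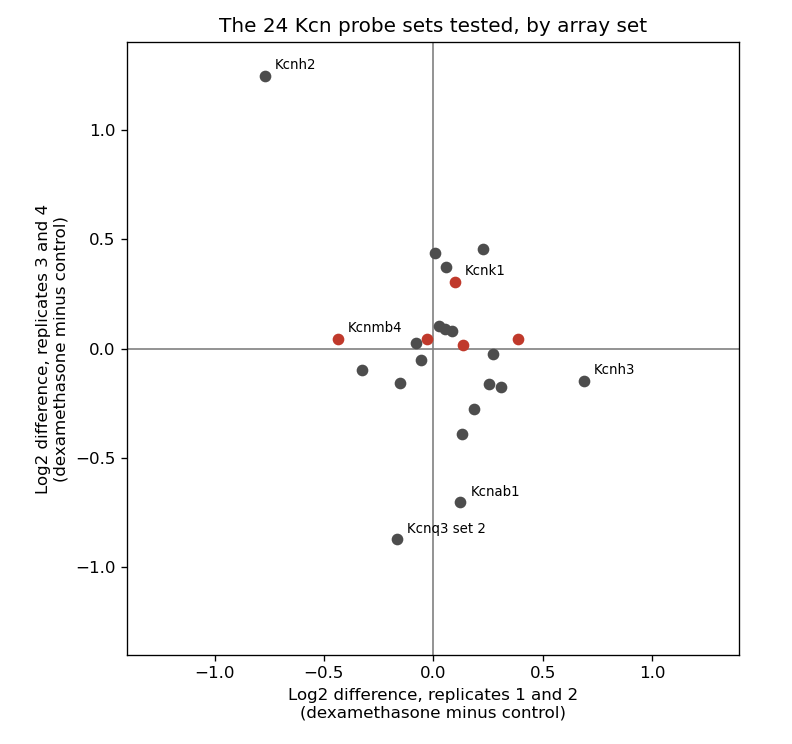
Log2 difference (dexamethasone minus control) of the 24 tested Kcn probe sets in replicates 1 and 2 (x axis) and in replicates 3 and 4 (y axis), each from 2 arrays a group. Red marks probe sets above the level of silent genes on all 8 arrays; 13 points lie in the quadrants of equal sign and 11 in the others, with Kcnh2 at -0.77 and 1.25.

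Other genes that move K+ or regulate its transport were taken from a list of pumps, cotransporters, accessory subunits and kinases. Of 40 genes 30 were measured, 15 were above the silent level on all 8 arrays (49.1% of all probe sets were), 17 were tested, 2 were higher and 0 lower (limma, adjusted p under 0.05, against 1.88% and 0.81% of all tested probe sets), with a median log2 fold change of -0.06 against -0.02 over all tested probe sets. The genes that rose were Sgk1, the glucocorticoid-induced kinase that regulates several ion channels (log2 fold change 3.19, adjusted p = 1.09e-06 from limma), and Oxsr1, a kinase that activates sodium and potassium coupled chloride cotransporters. Oxsr1 had 625 to 769 with dexamethasone and 377 to 516 in control, without overlap (log2 fold change 0.59, SE 0.14, adjusted p = 0.0426 from limma). Its call was close to the threshold and was lost under several settings, among them no filter (adjusted p = 0.100), the replicate number as a block (adjusted p = 0.0514) and the beta-actin ratio as a covariate (adjusted p = 0.460), and when any array other than control replicate 4 was left out (adjusted p of 0.0626 to 0.124, limma).

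The sodium pump is the partner of basolateral K+ channels in sodium absorption. Its subunit Atp1b1 and the cotransporter Slc12a2 had high signals that did not pass the test. Atp1b1, the beta 1 subunit of the sodium pump, had 4003 ± 265 with dexamethasone and 3400 ± 649 in control (SD, n = 4 each; log2 fold change 0.25, SE 0.13, adjusted p = 0.355 from limma). Slc12a2 had a log2 fold change of -0.07 (SE 0.10, adjusted p = 0.814 from limma). Hcn2, a channel for K+ and sodium opened by hyperpolarization and outside the Kcn symbols, was above the silent level on all 8 arrays at 384 ± 83.9 with dexamethasone and 414 ± 64.9 in control (SD, n = 4 each). Abcc8 and Abcc9, the regulatory partners of Kcnj11, were above it on no array.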

How the data were processed

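Total RNA of 8 SCCD cultures (4 dexamethasone, 4 control, groups from the labels) was amplified in 2 rounds and hybridized by the authors to Affymetrix arrays. The deposited values are signal intensities on a linear scale, 1 per probe set and array, which the authors scaled to a target of 500 per the labels. Detection calls and probe-level values were not used here. As deposited, replicates 3 and 4 lay under the target, so 1 factor per array brought the 2% trimmed mean to 500. A floor of 16 was applied before log2. Probe sets averaging 100 or more (10368 of 15866) were tested with limma 3.58.1 in R 4.3.3 (lmFit, eBayes with trend, two-sided, Benjamini-Hochberg at 0.05). The fit was also run on simulated data, with changes set only in probe sets stronger than the filter requires. That run does not show how well changes of weaker Kcn probe sets are found. Single probe sets were compared with exact permutation tests. The annotation gave 1 symbol to 12783 probe sets. The members, gene lists and tests were chosen with earlier results of these data known. Kcn genes past the test, above the silent level on all arrays or with discordant probe sets were named with array values, ranges or mean signals. So were those of known inner ear roles or with an unadjusted p under 0.05. Other genes given values, such as Kcna2, Kcnh3, Kcnk5, Kcnj13, Kcne3 and Hcn2, were added after their values were seen. An interaction with array set was added after the data were seen. Alternatives changed the filter, scaling, floor, variance model, blocks, RNA quality covariate, array sets, replicates, call rule and silent level. Promoters were read from the RefSeq table of build GRCr8 with Python 3.11.15 (pandas 2.3.3, numpy 2.4.6, scipy 1.17.1). The number of arrays limits the precision.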

Additional observations from a re-analysis of the deposited data

Results flagged for a closer look

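In 3 of 52 groups of 4 arrays looked at (26 probe sets), 1 array stood apart from the other 3 of its group by Dixon's criterion. Chance gives about 1 in 20 such groups. Kcnh2 was lowest on dexamethasone replicate 4 (91.9, next 109.0). Kcnma1, by its strongest probe set, was highest on control replicate 1 (92.7, next 22.8), and Kcnn4 was highest on dexamethasone replicate 2 (37.5, next 6.06). All 3 signals were under the silent level of their array.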

How the results depend on the processing

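The count of 0 Kcn probe sets past the test, in either direction, held in all 22 limma alternatives. By the median of 16 ratios at 1.3-fold, without a test, 1 was lower. Over all probe sets, where 279 changed, the count was 102 with no filter, 36 on signals as deposited, 578 with the array set as a block, 434 in replicates 1 and 2 alone, 21 in replicates 3 and 4 alone, 65 with the beta-actin ratio as a covariate, 1494 by the median of ratios, and 179 to 277 without 1 array, the lower counts being those without dexamethasone replicate 1 (184) or 2 (179). With the replicate number as a block it was 484. The numbers are not stated to pair the samples, and deviations of same-numbered arrays correlated at 0.35, 0.25, 0.03 and 0.41, against -0.41 to 0.43 for arrays of unlike number. Kcn probe sets above the silent level on all arrays were 9 at the 90th percentile, 0 at the highest silent signal and 5 to 7 without 1 array. Of 270 fold values of 12 Kcn probe sets under the alternatives, 242 kept their sign and 28 did not, none past the test. Part of this agreement was fixed in advance. No filter, no trend, the robust fit and the blocks change the variance or the adjustment and leave the fold value as it was. Leaving out 1 array gave -0.10 to 0.36 for the stronger probe set of Kcnk6, -0.074 to 0.15 for Kcnk13, -0.029 to 0.23 for Kcnj15, -0.0032 to 0.53 for Kcnh3 and -0.40 to 0.56 for Kcnh2. Replicates 1 and 2 alone gave -0.028 for Kcnk13 and -0.77 for Kcnh2. Replicates 3 and 4 alone gave 0.045 for Kcnmb4, -0.18 for Kcnj15, -0.024 for Kcnj4 and -0.15 for Kcnh3. The covariate gave -0.11 for Kcnk13, 0.024 for Kcnmb4, -0.12 and 0.076 for the stronger and the weaker probe set of Kcnq3 and -1.15 for Kcnh2. Averaging a gene's probe sets gave -0.092 for Kcnj4 and -0.15 for Kcnq3. For Kcnj15 the sign held but the size did not, at 0.70 (adjusted p = 0.187 from limma) against 0.068 for its stronger probe set. A floor of 100 gave -0.35 and the median of ratios -0.17 for Kcnh2. The causes were not tested. Low signals limit what can be seen of most of these genes.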
